A study of Mus musculus with 8 samples.

Results

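The Taf1d gene carries a cluster of small nucleolar RNAs (snoRNAs) in the introns of its longer transcripts. All rows of the count tables lying wholly inside a fixed interval of mouse chromosome 9 that encloses Taf1d were taken, which gave 10 of the 5518 rows, from position 15312552 to position 15316808 (mm10). Of these, 8 were typed as snoRNA in GENCODE vM21, among 1507 snoRNA rows in all, and 2 were typed as miRNA and lay inside or across a snoRNA row. Rows entered by position and by no measured value, but the interval was chosen with earlier results of these data known.

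Small RNAs were counted in 8 mouse libraries. In 2 libraries the RNA came from MES cells, mouse embryonic stem cells grown without feeder cells and with leukemia inhibitory factor, labelled as not induced. Another 4 came from mouse embryonic fibroblasts (MEFs) with a conditional TRF2 allele and the tamoxifen-inducible recombinase Rosa26-CreERT2. Both sets were prepared by targeted enrichment sequencing of small RNA (TEsR), a method that ligates linkers to unsized small RNA and captures chosen molecules with hybridisation probes, and were read on a MiSeq. The last 2 libraries came from the same MEFs with TRF2 deletion induced by 0.6 uM 4-hydroxytamoxifen for 48 hours, prepared by standard TruSeq small RNA sequencing and read on a HiSeq. TRF2 is a telomere-binding protein whose loss uncaps chromosome ends, and its mRNA was not analysed here because the tables list small RNAs. According to the sample titles, 2 of the 4 MEF TEsR libraries were induced and 2 were not. Their column names carry the codes mmS1, mmS2, pmS1 and pmS2, which the labels do not explain, so induced and uninduced libraries were not compared and the 4 were treated as one group. The genotype of the MES cells is not stated beyond their label. The labels do not say that the samples within a group were cultured separately. A p-value here therefore rests on how far these libraries scatter, and that scatter may be technical only.

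Total counts were 2785150 and 2676776 in the MES libraries, 3221641 to 3768668 in the MEF TEsR libraries, and 8961221 and 8442960 in the TruSeq libraries, here named by their index ATCACG and CGATGT. One row held 53.0% and 54.5% of the counts in the MES libraries, 39.0% to 43.1% in the MEF TEsR libraries, and 50.2% and 43.6% in the TruSeq libraries, and none of these rows lay in Taf1d. Levels are given as CPM, a row's counts in 1000000 counts of the library, so they depend on those abundant rows. The 10 embryonic stem cell miRNA rows checked summed to 449 to 489 CPM in MES, 0 to 1.33 CPM in MEF TEsR, where 8 were at 0, and 0 CPM in MEF TruSeq, where all 10 were at 0. The 9 fibroblast miRNA rows summed to 131 to 142 CPM in MES, where 6 were at 0. They summed to 4621 to 20728 CPM in MEF TEsR and 52.9 to 89.3 CPM in MEF TruSeq, with 8 of the 9 above 0 in each. The 6 epithelial miRNA rows summed to 90.8 to 96.9 CPM in MES, 1.86 to 5.10 CPM in MEF TEsR and 0 CPM in MEF TruSeq, and the 3 blood miRNA rows were at 0 in all libraries. The part of these differences in the results below was not tested.

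Taf1d encodes a TATA-box-binding-protein-associated factor of the selectivity complex that recruits RNA polymerase I to ribosomal RNA genes. Vertebrate snoRNAs are mostly processed from spliced host introns: C/D box snoRNAs guide ribose methylation of ribosomal RNA with the methyltransferase fibrillarin, and H/ACA box snoRNAs guide pseudouridine formation with the pseudouridine synthase dyskerin. In human, the TAF1D gene likewise hosts snoRNAs of both classes. The mouse rows carry provisional Gm names only, so the rRNA positions that each one guides were not assigned.

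In host order, the rows begin with Gm25500 (ENSMUSG00000077614, chr9:15312552-15312674, 123 bases), in intron 6 of the transcript Taf1d-204, with the 59-base miRNA-typed row mmu-mir-7650 (chr9:15312611-15312669) inside it. Gm24455 (ENSMUSG00000065282, chr9:15313802-15313932, 131 bases) lay in intron 7 and Gm24299 (ENSMUSG00000088929, chr9:15314074-15314144, 71 bases) in intron 8. Gm25791 (ENSMUSG00000065226, chr9:15314845-15314981, 137 bases) lay in intron 9 and was overlapped by the miRNA-typed row AC154296.1 (chr9:15314842-15314908, 67 bases). Gm22620 (ENSMUSG00000064634, chr9:15315189-15315321, 133 bases) lay in intron 10. Intron 11, the last of Taf1d-204, held Gm24357 (ENSMUSG00000064797, chr9:15315522-15315595, 74 bases), Gm23455 (ENSMUSG00000065265, chr9:15316489-15316588, 100 bases) and Gm22579 (ENSMUSG00000065663, chr9:15316676-15316808, 133 bases). All 10 rows lay on the + strand, the strand of Taf1d (chr9:15306214-15316991).

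No protein-coding transcript of Taf1d reached any of the 10 rows in the annotation. Taf1d had 16 annotated transcripts, 5 of them protein coding, and the last protein-coding transcript ended at position 15312104, upstream of the first snoRNA row. In 3 of the 16 transcripts all 10 rows were intronic, among them Taf1d-204, a transcript of 12 exons typed as a target of nonsense-mediated decay. Each row also overlapped an exon of 1 to 3 other transcripts, with Gm24299 exonic in 3 of them. From the end of a snoRNA row to the next exon of Taf1d-204 there were 57 bases for Gm24455, 61 for Gm22620, 80 for Gm22579, 86 for Gm24299, 99 for Gm25500, 120 for Gm25791 and 300 for Gm23455. Gm24357 stood apart, with 1293 bases of intron 11 downstream of it.

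**Figure D1:**
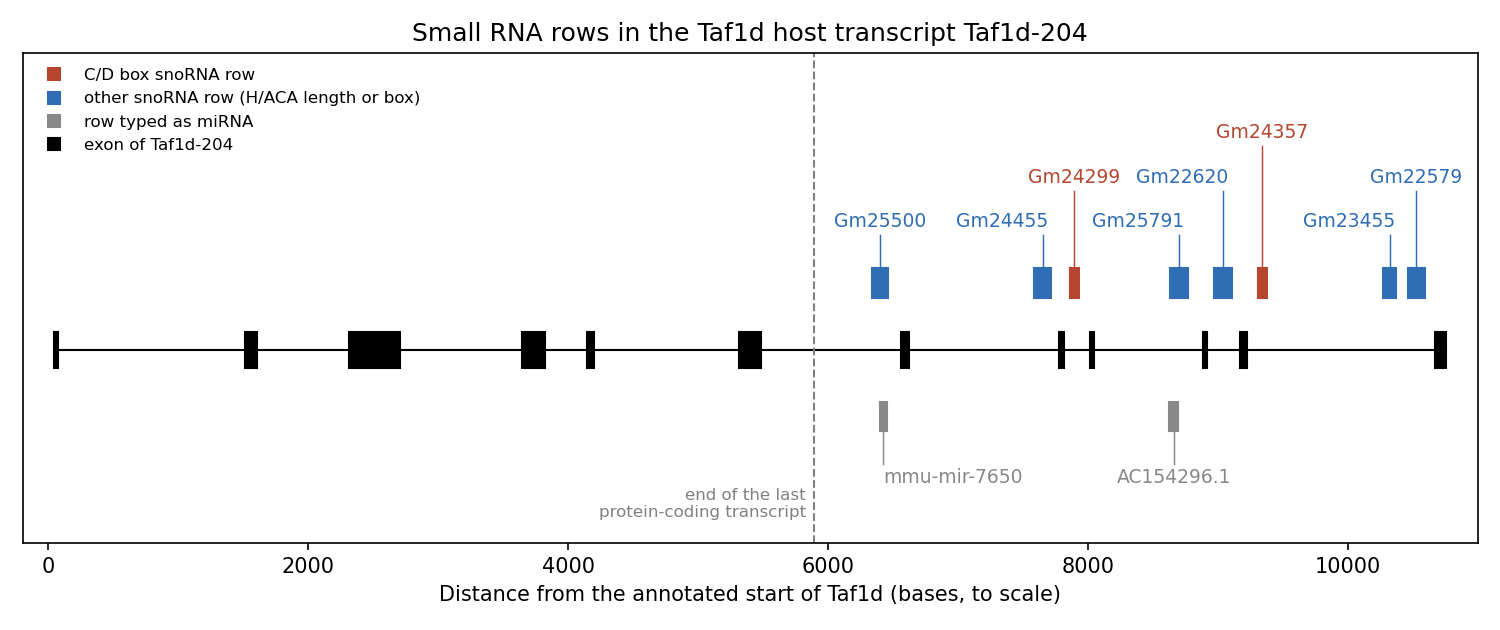
Map of Taf1d to scale, in bases from the annotated start of the gene: exons of Taf1d-204 as black boxes on the line, C/D rows in red, the 6 other snoRNA rows in blue, miRNA-typed rows in grey below. All 10 rows lie beyond the end of the last protein-coding transcript (dashed line), and the 2 C/D rows lie in introns 8 and 11.

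The sequences show how the classes were told apart. The first pair below are the C/D rows, printed 5′ to 3′ as the RNA strand from the GENCODE vM21 transcripts (mm10), with the C box and the terminal D box in capitals. The next 3 are the longer rows with the most counts, with the terminal ACA in capitals.
Gm24299: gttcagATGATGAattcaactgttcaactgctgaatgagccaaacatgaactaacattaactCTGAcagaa
Gm24357: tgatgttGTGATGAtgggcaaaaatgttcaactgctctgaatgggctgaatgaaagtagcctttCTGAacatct
Gm24455: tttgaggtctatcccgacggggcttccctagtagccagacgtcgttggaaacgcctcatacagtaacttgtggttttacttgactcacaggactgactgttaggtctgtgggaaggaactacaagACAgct
Gm25791: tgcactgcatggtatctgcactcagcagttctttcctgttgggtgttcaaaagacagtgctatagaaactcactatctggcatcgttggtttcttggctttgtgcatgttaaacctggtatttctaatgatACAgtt
Gm22620: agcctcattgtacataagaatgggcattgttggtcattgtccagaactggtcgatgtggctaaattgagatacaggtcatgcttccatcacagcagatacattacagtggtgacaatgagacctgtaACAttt

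Gm24299 and Gm24357 were the only members with both a C box, searched as NTGATGA starting in the first 20 bases, and a D box, searched as CTGA ending in the last 20 bases. Only the RNA strand was searched, and 308 of the 1507 snoRNA rows (20.4%) held both boxes. A terminal ACA followed by 2 to 4 bases, in a row of over 110 bases without those boxes, was found in Gm24455, Gm25791, Gm22620 and Gm22579 and in 597 of the 1507 snoRNA rows (39.6%). Gm23455 ended in an ACA of the same spacing but had 100 bases, and the RefSeq annotation of GRCm38.p6 lists a pseudogene at the same coordinates. Gm25500 had neither set of letters, and RefSeq uses that name for a miRNA at the coordinates of mmu-mir-7650. These 6 rows are described together below as the H/ACA group, although the internal H box was not searched. For Gm25500 and Gm23455, which did not meet the rule above, the name is a label only.

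The C/D members shared a run of 12 bases, marked in capitals here.
Gm24299: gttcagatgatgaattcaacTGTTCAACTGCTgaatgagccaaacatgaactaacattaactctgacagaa
Gm24357: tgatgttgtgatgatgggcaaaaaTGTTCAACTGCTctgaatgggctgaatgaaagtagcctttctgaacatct
The run lay at positions 21 to 32 of Gm24299 and 25 to 36 of Gm24357, counted from the 5′ end. A CTGA began at position 31 in Gm24299, overlapping the end of the run, and at position 37 in Gm24357, directly after it. Of the 1507 snoRNA rows, these 2 (0.133%) held the run. In box C/D snoRNAs the stretch upstream of an internal or terminal D box can pair with the target RNA. The match of letters is a description, and no target was assigned.

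Gm24299 was the main product of the locus in every TEsR library and Gm24357 in both TruSeq libraries. Gm24299 had 7373 and 6055 counts in MES 1 and MES 2. In the MEF TEsR libraries it had 20412, 14365, 15234 and 9596 counts in mmS1, mmS2, pmS1 and pmS2, and in the TruSeq libraries 5245 and 5230 counts in ATCACG and CGATGT. Its level was 2647 and 2262 CPM in MES, a mean of 2455 ± 272 CPM (SD, n = 2). MEF TEsR libraries gave 5474, 3812, 4307 and 2979 CPM, a mean of 4143 ± 1043 CPM (SD, n = 4), and MEF TruSeq libraries gave 585 and 619 CPM, a mean of 602 ± 24.1 CPM (SD, n = 2). The 3 groups did not overlap on this scale: MEF TEsR was highest, MES intermediate and MEF TruSeq lowest. Among snoRNA rows ordered by count, Gm24299 ranked 13 in both MES libraries, 6 to 14 in MEF TEsR and 71 in both TruSeq libraries.

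Gm24357 showed another order of the groups. It had 98 and 83 counts in MES 1 and MES 2, then 10, 24, 26 and 28 counts in mmS1, mmS2, pmS1 and pmS2, and 26835 and 16996 counts in ATCACG and CGATGT. Its level was 35.2 and 31.0 CPM in MES, a mean of 33.1 ± 2.96 CPM (SD, n = 2). It was 2.68, 6.37, 7.35 and 8.69 CPM in MEF TEsR, a mean of 6.27 ± 2.58 CPM (SD, n = 4), and 2995 and 2013 CPM in MEF TruSeq, a mean of 2504 ± 694 CPM (SD, n = 2). Every TruSeq library lay above every MES library, and every MES library above every MEF TEsR library. Its rank among snoRNA rows was 98 and 99 in MES, 99 to 118 in MEF TEsR, and 20 and 31 in TruSeq.

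In the H/ACA group, following the host from its 5′ end, Gm25500 had 0 counts in all 6 TEsR libraries and 1 and 3 counts in ATCACG and CGATGT. A count of 0 allows a level of up to 1.08 and 1.12 CPM in the MES libraries and 0.796 to 0.931 CPM in the MEF TEsR libraries, taking 3 counts as the limit. This limit covers counting error only and does not bound the amount of RNA in the cells. Which rows the capture probes targeted was not examined. Gm24455 was the member of the group with most counts. It had 3 and 2 counts in MES 1 and MES 2, then 2, 0, 2 and 0 counts in mmS1, mmS2, pmS1 and pmS2, and 3832 and 3854 counts in ATCACG and CGATGT. The TruSeq level was 428 and 456 CPM, a mean of 442 ± 20.4 CPM (SD, n = 2), and the TEsR libraries were at or under the limit of 3 counts. It ranked 76 and 82 among snoRNA rows in the TruSeq libraries.

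Gm25791 had 7 and 1 counts in MES, 0 counts in all 4 MEF TEsR libraries, and 9 and 17 counts in TruSeq. Gm22620 was detected in every library, with 1 and 1 counts in MES, 18, 2, 3 and 6 counts in mmS1, mmS2, pmS1 and pmS2, and 52 and 35 counts in ATCACG and CGATGT. Its level averaged 0.366 ± 0.0103 CPM in MES (SD, n = 2), 2.02 ± 1.96 CPM in MEF TEsR (SD, n = 4) and 4.97 ± 1.17 CPM in MEF TruSeq (SD, n = 2). The library mmS1 held 18 of the 29 MEF TEsR counts, and the MEF TEsR and TruSeq ranges overlapped in CPM. Gm23455 had 1 count in 1 MES library, none in MEF TEsR, and 2 and 1 counts in TruSeq. Gm22579 had no count in any library.

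Of the miRNA-typed rows, mmu-mir-7650 had no count in any library. AC154296.1 had 7 and 1 counts in MES, the same as Gm25791, 0 in MEF TEsR, and 3 and 10 in ATCACG and CGATGT. It overlaps Gm25791 on the same strand, so the same reads can be counted in both rows. In all, 8 of the 10 rows had a count in at least 1 library and 3 had a count in every library (Gm24299, Gm22620 and Gm24357), against 856 and 201 of all 5518 rows.

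Set per kilobase of row length, the C/D members had the highest levels in the TEsR libraries. In MES, Gm24299 averaged 34573 and Gm24357 447 CPM per kilobase, and Gm24455 averaged 6.96. The MEF TEsR means were 58349, 84.8 and 2.10 CPM per kilobase for Gm24299, Gm24357 and Gm24455. In MEF TruSeq the order of the C/D members was turned round, with 8484 CPM per kilobase for Gm24299 and 33835 for Gm24357, and Gm24455 followed with 3374. Gm22620 averaged 2.75 CPM per kilobase in MES, 15.2 in MEF TEsR and 37.4 in MEF TruSeq.

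**Figure D2:**
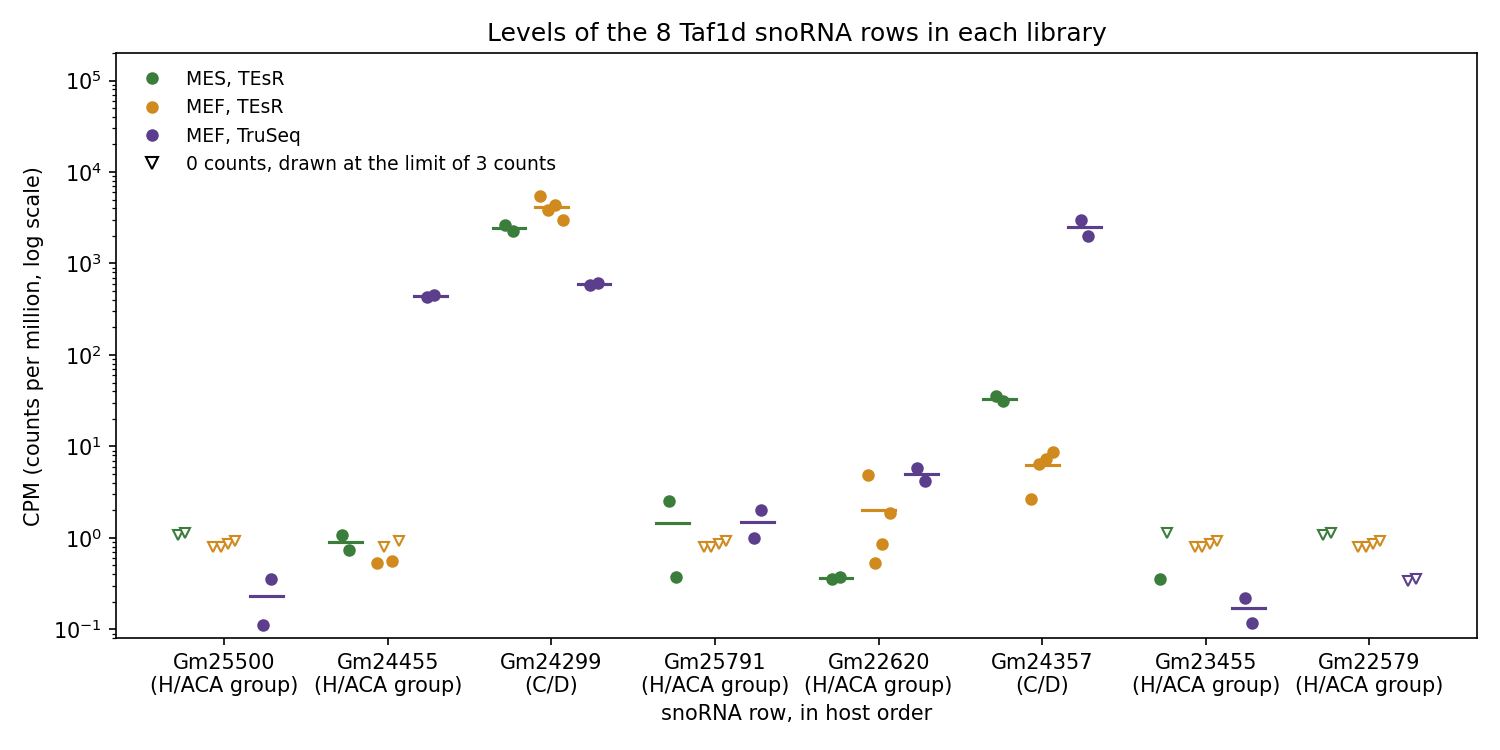
Levels of the 8 snoRNA rows in host order, in CPM on a log axis: each filled point is a library, short lines are group means where no library is at 0, and open triangles are libraries with 0 counts drawn at the limit of 3 counts. Gm24299 is at 2262 to 5474 CPM in the 6 TEsR libraries and 585 and 619 CPM in TruSeq, whereas Gm24357 and Gm24455 are at 35.2 CPM or less in TEsR and at 428 to 2995 CPM in TruSeq.

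Sequence copies elsewhere could share reads with some members but were not found for the most abundant ones. The blastn search covered the RNA strand of all annotated transcripts, and hits to counted rows of any type outside the interval were kept. Unannotated copies in the genome were not searched for. Gm24299, Gm24357 and Gm22620 had no similar row, and the nearest row to Gm24455 matched 73.3% of its bases. The nearest row to Gm25791 was Gm26236 on chromosome 2, matching 97.8% of its bases, with 0 counts in every library. For Gm25500, 18 similar rows were found, 1 of them matching at least 90% of its bases. Gm23455 had 13 similar rows, 4 of them matching at least 90% of its bases, and Gm22579 had 9, 3 of them matching at least 90% of its bases. Gm24539 on chromosome 13 was identical to Gm22579 over its whole length and also had 0 counts in every library. Another copy on chromosome 13, Gm24095, matched Gm22579 at 132 of 133 bases (99.2%). It had 9 and 14 counts in ATCACG and CGATGT and none in TEsR. Counts of Gm25500, Gm25791, Gm23455 and Gm22579 are therefore uncertain, because how reads matching several places were counted is not given in the sources used here.

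MES and MEF cells were compared by TEsR to ask how the members differed between a pluripotent and a fibroblast cell type under the same method. Gm24357 was higher in MES and Gm24299 did not pass the test. Of the 10 members, 2 had enough counts to be tested and 1 was called, against 205 of the 273 rows tested (75.1%). A call here was thus the usual outcome. Both members reached the minimum level for testing (2.96 CPM in 2 libraries) in both groups, as did 158 of the 273 rows. Another 51 rows reached it through MES alone and 62 through MEF TEsR alone. The 75.1% is therefore not a like background for these members. Gm24357 had a log2 fold change of 3.15 ± 0.50 (SE, MES over MEF TEsR, n = 2 and 4), with an adjusted p of 2.15e-04 by edgeR's quasi-likelihood test. Of all rows tested, 119 (43.6%) were called higher and 86 (31.5%) lower in MES, with a median over all rows of 0.45 on the log2 scale. In bulk RNA, fewer cells that make a snoRNA and less of it per cell cannot be told apart.

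The value of Gm24357 depended on the scaling in size but not in direction. Pooled over libraries, it had 181 counts in MES against 88 in MEF TEsR, a CPM ratio of 5.37 (95% exact interval 4.14 to 7.01, counting error only). The log2 fold change was 2.40 with library size only and 1.54 when only snoRNA rows were scaled and fitted (adjusted p = 0.0129), and the adjusted p ranged from 4.68e-08 to 0.0129 over all alternatives tried.

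For Gm24299 the direction itself rested on the scaling. Its log2 fold change was 0.03 ± 0.33 (SE, adjusted p = 0.926 by edgeR's quasi-likelihood test), although both MES libraries lay below all 4 MEF TEsR libraries in CPM. It was -0.76 with library size only, -0.15 with DESeq2 and -1.63 when only snoRNA rows were scaled and fitted (adjusted p = 4.16e-04 by the same edgeR test, within 4.16e-04 to 0.953 over all alternatives). The median over the 273 rows was -0.38 with library size only and 0.32 with DESeq2, and the median over the 150 rows of the snoRNA fit was 0.92.

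Members of the H/ACA group had too few counts in the TEsR libraries to be tested. Gm24455 had 5 counts in MES against 4 in MEF TEsR, a CPM ratio of 3.26 with an interval of 0.702 to 16.4, which includes no difference. Gm22620 had 2 counts in MES against 29 in MEF TEsR, a ratio of 0.180 (0.0208 to 0.712). Both MES libraries lay under the limit of 3 counts, so the size of this ratio is uncertain. Without mmS1, the ratio was 0.350 (0.0377 to 1.61), from 11 counts in the other MEF TEsR libraries. For Gm25791, with 7 counts in MES 1, 1 count in MES 2 and 0 in every MEF TEsR library, no fold is given, since MES 2 lay under its own limit of 3 counts.

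Other snoRNA rows give the surroundings of these values. Of 150 snoRNA rows tested, 93 were higher and 21 lower in MES, with a median log2 fold change of 2.63. Of these 150, 112 reached the minimum level for testing in both groups, 31 through MES alone and 6 through MEF TEsR alone. For rows that entered through a single group, the direction was largely set by the filter. With snoRNA rows scaled and fitted alone, also 150 rows, 72 were higher and 47 lower, with a median of 0.92. Among the 86 other rows with C and D boxes, 51 were higher and 12 lower (median 2.48), and 72 of the 86 reached the minimum level for testing (2.96 CPM in 2 libraries) in both groups. Of the rows named Snord, 43 of 70 were higher and 10 lower (median 2.58). Of the 11 other rows over 110 bases with a terminal ACA, 9 reached the minimum level through the MES libraries alone, so their direction was largely set by the filter and is not counted here. In order of log2 fold change among the 88 C/D rows, members included, Gm24357 stood 39th and Gm24299 63rd from the top. Rows over 110 bases with a terminal ACA held 1.03% and 0.879% of the counts in the MES libraries, against 0.00487% to 0.00981% in the MEF TEsR libraries. The Taf1d members of that kind had at most 7 counts each in any MES library and at most 18 in any MEF TEsR library.

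MEF TEsR and MEF TruSeq libraries were compared to ask how the library method bears on the members in the same cell type. Gm24299 was higher by TEsR, Gm24357 and Gm24455 were lower by TEsR, and Gm22620 did not pass the test. Of the 4 members with enough counts, 3 were called, against 310 of the 352 rows tested (88.1%), so the count of members called was near the background. Of these 3, Gm24455 reached the minimum level for testing through TruSeq alone, as did 127 of the 352 rows. Method, instrument, depth and the mix of induced and uninduced cells changed together between these groups, and their parts cannot be told apart. Whether reads were filtered alike in both groups before counting is not stated.

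The log2 fold change of Gm24299 was 3.40 ± 0.44 (SE, MEF TEsR over MEF TruSeq, n = 4 and 2), with an adjusted p of 1.07e-05 by edgeR's quasi-likelihood test. Of all rows tested, 114 (32.4%) were called higher by TEsR and 196 (55.7%) lower, with a median log2 fold change of -2.42. Pooled over libraries, Gm24299 had 59607 counts by TEsR against 10475 by TruSeq, a CPM ratio of 6.95 (95% exact interval 6.80 to 7.09, counting error only). Its log2 fold change was 2.78 with library size only and 5.96 when only snoRNA rows were scaled and fitted.

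Gm24357 had a log2 fold change of -8.02 ± 0.57 (SE), with an adjusted p of 5.41e-08 by the same edgeR test. Its 88 counts by TEsR stood against 43831 by TruSeq, so that CPM was 408-fold higher by TruSeq (331 to 509). The log2 fold change was -7.28 without the TruSeq library ATCACG and -5.48 when only snoRNA rows were scaled and fitted. The C/D members thus moved in opposite directions between the methods, and did so under every alternative tried.

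Gm24455, the tested member of the H/ACA group with most counts, had a log2 fold change of -9.97 ± 0.70 (SE), with an adjusted p of 4.75e-08 by the same edgeR test. It reached the minimum level for testing, here 2.67 CPM, in 0 of 4 TEsR libraries and 2 of 2 TruSeq libraries, so a row that entered this way had to differ, and the p adds no independent support to the counts. It had 4 counts by TEsR against 7686 by TruSeq, a CPM 1574-fold higher by TruSeq with an interval of 614 to 5778. Every MEF TEsR library lay under the limit of 3 counts, so this fold is uncertain and is best read from its lower bound. When only snoRNA rows were scaled and fitted, the log2 fold change was -7.45. Gm22620 had -0.72 ± 0.77 (SE, adjusted p = 0.385 by the same edgeR test). Its direction was not stable: it was 1.89 when only snoRNA rows were scaled and fitted (adjusted p = 0.0457 by edgeR) and -1.70 with pmS1 and pmS2 as the only TEsR libraries (adjusted p = 0.0395 by edgeR). Over all alternatives its adjusted p ran from 0.0395 to 0.988. Gm22620 reached the minimum level in 1 of 4 TEsR libraries and 2 of 2 TruSeq libraries. Gm25791 was not tested: it had 0 counts by TEsR and 9 and 17 counts by TruSeq, and its counts are uncertain because of the similar row on chromosome 2.

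Among rows of their own class, the C/D members lay toward opposite ends. Among 95 C/D rows the log2 fold changes ran from -10.73 to 6.72 (median -3.07), and Gm24299 was 5th from the top and Gm24357 9th from the bottom. Of the 93 other C/D rows, 65 were lower and 15 higher by TEsR, and 75 of the 93 reached the minimum level in both groups. Of the 77 rows named Snord, 54 were lower and 10 higher. Of all 218 snoRNA rows tested, 166 were lower and 23 higher (median -4.68), but 99 of them reached the minimum level through TruSeq alone. With snoRNA rows scaled and fitted alone, 131 of 227 were lower and 53 higher (median -2.24). Of the 54 rows outside Taf1d with over 110 bases and a terminal ACA, 52 entered through TruSeq alone, so their direction is not counted here.

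**Figure D3:**
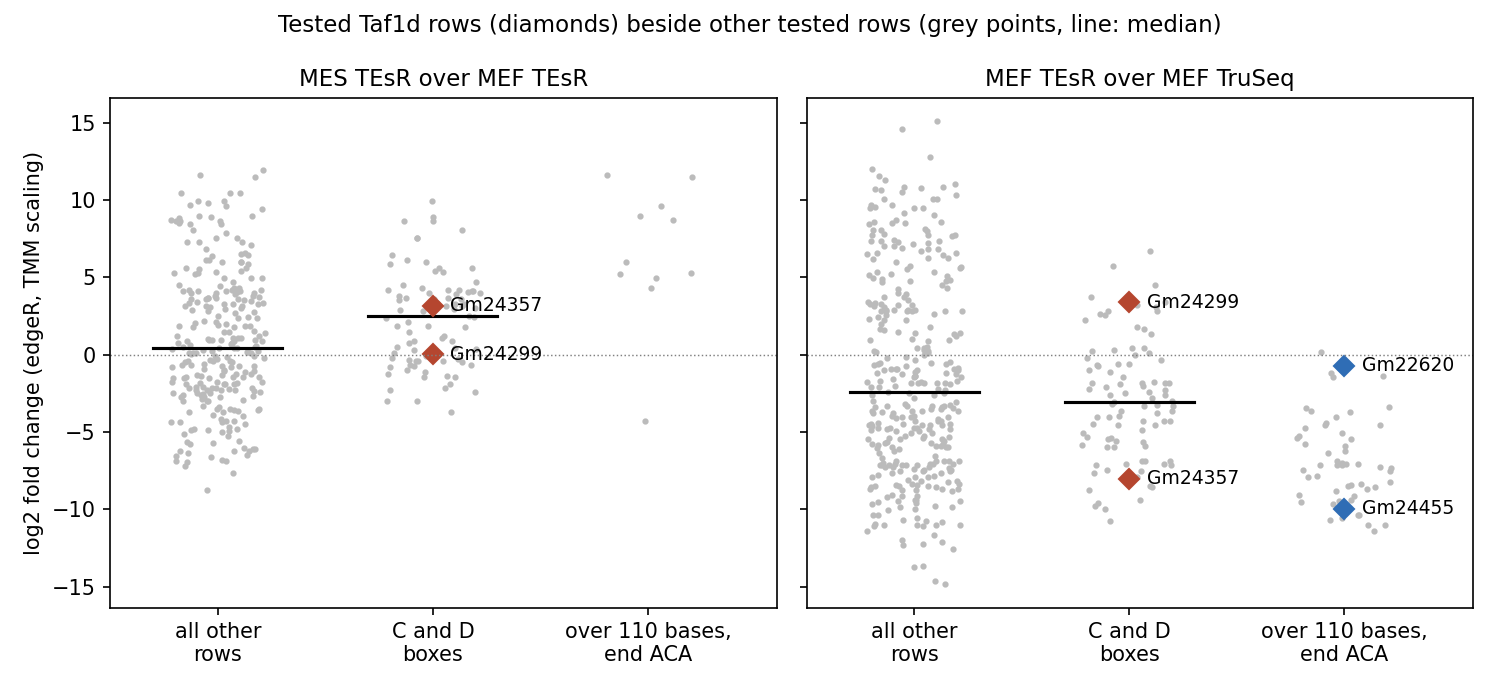
Log2 fold changes from edgeR for tested rows, MES over MEF TEsR on the left and MEF TEsR over MEF TruSeq on the right: grey points are rows outside Taf1d (all of them, then those with C and D boxes, then those over 110 bases with a terminal ACA), black lines are medians of the first and second sets, and diamonds are Taf1d members. On the right Gm24299 at 3.40 lies above the C/D median of -3.07 and Gm24357 at -8.02 below it; most terminal-ACA rows, Gm24455 included, entered that test through TruSeq alone.

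Ratios between members within a library need no scaling between libraries. For every 1000 counts of Gm24299 there were 13.3 and 13.7 counts of Gm24357 in MES 1 and MES 2. In mmS1, mmS2, pmS1 and pmS2 there were 0.490, 1.67, 1.71 and 2.92, and in ATCACG and CGATGT 5116 and 3250. The 95% exact intervals were 10.8 to 16.2 and 10.9 to 17.0 in the MES libraries, and the widest upper bound in MEF TEsR was 4.22. Per base of row length these ratios were 12.8 and 13.2 in MES, 0.470 to 2.80 in MEF TEsR, and 4909 and 3118 in TruSeq.

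The groups did not overlap in this ratio: TruSeq was highest, MES intermediate and MEF TEsR lowest. The mean log2 ratio of Gm24357 to Gm24299 was 3.25 higher in MES than in MEF TEsR, and the difference of MEF TEsR minus MEF TruSeq was -11.49. Each difference had an exact permutation p of 0.0667 (two-sided), which is the smallest that 2 libraries against 4 can give. Without mmS1, the lowest MEF TEsR library, the differences were 2.74 and -11.0.

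The share of the H/ACA group in the snoRNA counts of Taf1d overlapped between the cell types by TEsR and did not overlap between the methods. It was 0.160% and 0.0651% in MES 1 and MES 2, with 95% exact intervals of 0.0829% to 0.280% and 0.0177% to 0.167%. In mmS1, mmS2, pmS1 and pmS2 it was 0.0978%, 0.0139%, 0.0328% and 0.0623%. In ATCACG and CGATGT it was 10.8% and 15.0%, almost all of it Gm24455, of which these libraries had 731 and 737 counts for every 1000 of Gm24299. The mean differed by 0.0610 percentage points between MES and MEF TEsR (exact permutation p = 0.2, two-sided, ranges overlapping). Between MEF TEsR and MEF TruSeq the difference was -12.8 percentage points (exact permutation p = 0.0667, two-sided, the smallest possible, no overlap). Corrected for row length, the TruSeq shares were 6.38% and 8.96%.

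Taken as a whole, the locus held 0.229% to 0.548% of the counts of every library. The snoRNA rows of Taf1d held 0.269% and 0.229% of the counts in the MES libraries. They held 0.548%, 0.382%, 0.432% and 0.299% in mmS1, mmS2, pmS1 and pmS2, and 0.401% and 0.310% in ATCACG and CGATGT. MES lay below MEF TEsR without overlap, with a mean difference of -0.166 percentage points (exact permutation p = 0.133, two-sided), and MEF TEsR and MEF TruSeq overlapped, with a mean difference of 0.0596 (exact permutation p = 0.533, two-sided). That comparison depended on the denominator: without the rows holding over 5% of any library, the share was 1.91% to 3.33% in MEF TEsR and 0.994% to 1.46% in MEF TruSeq, with no overlap and a mean difference of 1.36 percentage points (exact permutation p = 0.133, two-sided). Of the Taf1d counts, Gm24299 made up 98.5% and 98.6% in MES, 99.6% to 99.9% in MEF TEsR, and 14.6% and 20.01% in TruSeq. Gm24357 made up 1.31% and 1.35% in MES, 0.0489% to 0.291% in MEF TEsR, and 74.6% and 65.0% in TruSeq.

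**Figure D4:**
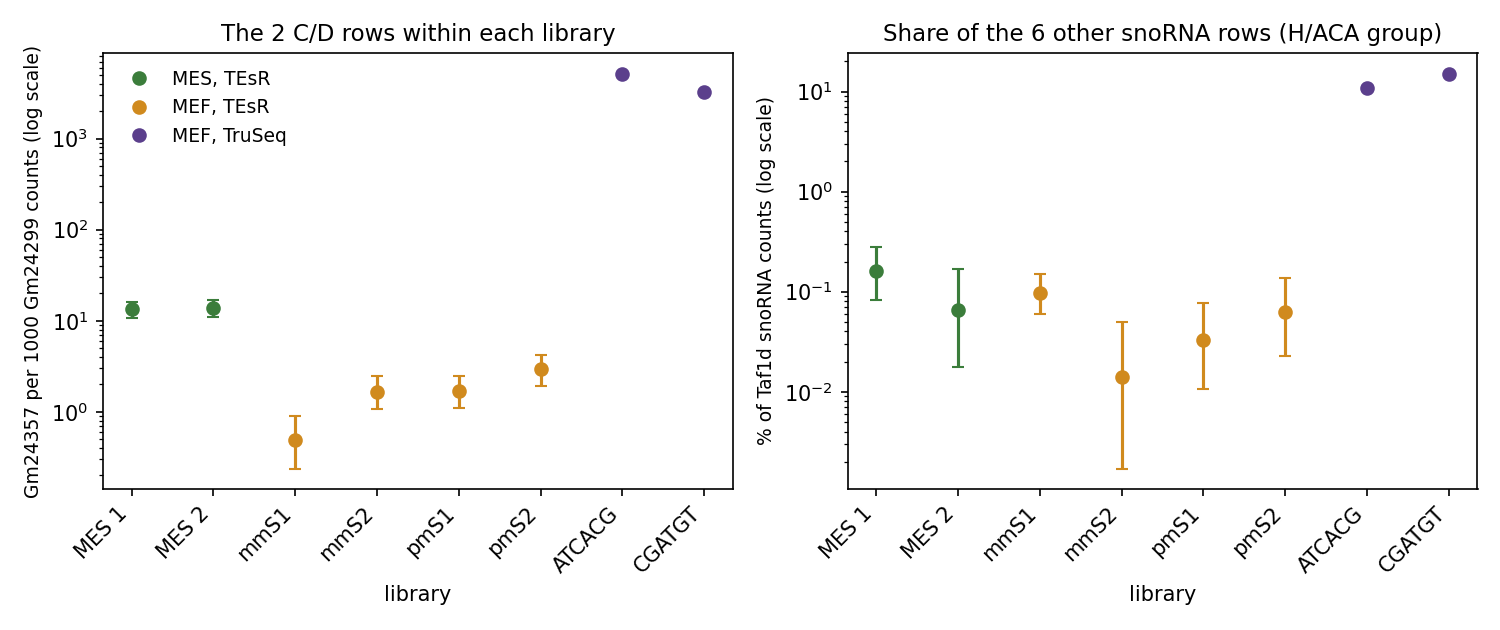
Left, Gm24357 counts per 1000 Gm24299 counts in each library; right, the H/ACA group as a percentage of the Taf1d snoRNA counts; both on log axes, with 95% exact intervals from counting. The ratio on the left is 13.3 and 13.7 in MES, 0.490 to 2.92 in MEF TEsR, and 5116 and 3250 in TruSeq, and the share on the right is at most 0.160% in TEsR and at least 10.8% in TruSeq.

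The snoRNA rows elsewhere nearest in level pattern to the summed members of each class were found by a fixed measure. Likeness was measured as the root mean square difference between centred group means of log2(CPM + 1), over 3 groups and 200 snoRNA rows outside Taf1d that reached 10 CPM in some group. The rows nearest to the summed C/D members were Gm24067 on chromosome 9 (0.403), Snord92 on chromosome 17 (0.415) and Snord17 on chromosome 2 (0.584). Gm24067 averaged 214 CPM in MES, 370 CPM in MEF TEsR and 490 CPM in MEF TruSeq, against 2488, 4149 and 3106 CPM for the summed C/D members. Gm24067 thus rose from MEF TEsR to MEF TruSeq, where the sum fell. The sum itself joins Gm24299, lower by TruSeq, and Gm24357, higher by TruSeq, so its pattern is that of neither member. Nearest to the summed H/ACA group were Snord88c (0.141), Snord12 (0.210) and snopsi28S-3327 (0.296). Snord88c averaged 0 CPM in MES, 0 CPM in MEF TEsR and 140 CPM in MEF TruSeq. Snord12 averaged 29.4 CPM in MES, 17.4 CPM in MEF TEsR and 3776 CPM in MEF TruSeq, against 2.90, 2.29 and 449 CPM for the summed group. In MEF TruSeq that sum was mostly Gm24455, at 442 CPM. With 3 groups this likeness is a description of level patterns only.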

How the data were processed

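The values deposited by the authors are raw read counts for each small RNA, in 2 tables that list the same 5518 rows. The submitters' processing notes name the build mm10 and the tools bedtools 2.25.0, SAMtools 1.2.1, BWA 0.7.12 and cutadapt. Settings, strand use and the treatment of reads with several matches are not stated there. The names of the TEsR count columns carry a tag that the TruSeq names lack. The labels do not explain it, so read filtering may differ between the methods. Gene types, host transcripts and sequences came from GENCODE vM21, where 5446 rows were found, 5445 at the same coordinates; the rest had 0 counts. Reads carried no molecular identifiers, so intervals (Clopper-Pearson, 95%) and limits (3 counts) cover counting error only.

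Rows were fitted over the whole table by the robust quasi-likelihood test of edgeR 4.0.16 (R 4.3.3), after TMM scaling and filterByExpr at its minimum of 10 counts. Adjusted p-values are Benjamini-Hochberg values over all tested rows, called under 0.05; the SE is the log2 fold change divided by the square root of F. Alternatives were DESeq2 1.42.0 (Wald test), library size only, no filter, duplicate rows counted once, rows over 5% of a library left out, snoRNA rows only, 1 fit of all 3 groups, the replicate block and leaving out each library. Using only the mm or only the pm libraries, the ratio of Gm24357 to Gm24299, and leaving out libraries for the ratio and the shares were added after seeing the data. Single values were compared by exact permutation over libraries (scipy 1.17.1). Sequence copies were searched with blastn 2.17.0 (E value 0.001). The edgeR step was tested on simulated data. Replicates within each group differed beyond sampling noise.

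All rows in the chosen interval are named. Likeness names the 3 nearest snoRNA rows outside the interval reaching 10 CPM in some group. Members and lists were chosen with earlier results of these data known. The TruSeq table is named a control by the submitters while the sample titles say induced, and groups follow the titles.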

Additional observations from a re-analysis of the deposited data

How the results depend on the processing

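Over the alternatives tried, Gm24357 kept its direction and stayed past the threshold in MES against MEF TEsR (log2 fold change 1.54 to 3.45). In MEF TEsR against MEF TruSeq the same held for Gm24299 (2.78 to 5.96) and Gm24357 (-8.64 to -5.48). Gm24455 also kept its direction there (-10.51 to -7.45). In the main fit it reached the minimum level for testing through TruSeq alone, so its calls add no independent support. Fitting snoRNA rows only called 72 rows higher and 47 lower of 150 in MES against MEF TEsR, against 93 and 21 of the same number in the fit of all rows. In MEF TEsR against MEF TruSeq it called 53 higher of 227, against 23 of 218. The same setting gave -1.63 for Gm24299 in the first comparison and 1.89 for Gm22620 in the second, both past the threshold. In the main fit these values were 0.03 and -0.72. Gm24299 was also below 0 with DESeq2 (-0.15) and library size only (-0.76), and above 0 with pm libraries only (0.23). The cause of these shifts was not tested. Gm22620 also passed the threshold with pm libraries only, at -1.70. With snoRNA counts as the denominator, the Taf1d share differed by -0.0387 percentage points between MEF TEsR and MEF TruSeq (exact permutation p = 0.733), and by 1.36 (p = 0.133, exact permutation) without the rows over 5% of a library. Leaving out each library in turn changed no call of a member. It gave 103 to 121 rows higher and 59 to 97 lower in MES against MEF TEsR, and 96 to 116 higher and 187 to 202 lower in MEF TEsR against MEF TruSeq. Member log2 fold changes then ran from -0.25 to 0.10 for Gm24299 and 2.71 to 3.42 for Gm24357 in the first comparison. In the second they ran from -10.45 to -9.50 for Gm24455, 3.15 to 3.75 for Gm24299, -1.45 to -0.06 for Gm22620 and -8.54 to -7.28 for Gm24357. The H/ACA share differed by 0.0134 to 0.109 and by -14.9 to -10.8 percentage points, the Taf1d share by -0.205 to -0.122 and by 0.0137 to 0.106, and the log2 ratio of Gm24357 to Gm24299 by 2.74 to 3.59 and by -11.8 to -11.0. Fits that leave 1 library in a group assume that it varies like the others. Same-numbered TEsR samples did not deviate together (correlations of 0.0134, 0.0108 and -0.0974 over 160 rows). With a single difference per set of samples, this shows no shared shift but cannot exclude that the numbers mark pairs. With the replicate block, 117 rows were higher and 77 lower in MES against MEF TEsR, with Gm24357 at 3.26 (adjusted p = 2.27e-04 by edgeR) and Gm24299 at 0.03. The TruSeq columns carry no numbers, so no block could be fitted there. The H/ACA share over rows with at least 10 counts in every library could not be computed, since the C/D rows alone qualify. In the TEsR libraries, 3 counts correspond to 0.796 to 1.12 CPM, and levels of the H/ACA group under that limit were not resolved. The cause of its low counts by TEsR was not tested.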
